A study of Arabidopsis thaliana with 12 samples.

Results

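The probes described here are the brightest ones on the array that carry the name of exactly 1 gene. They were chosen by their mean intensity over all 12 arrays, at least 1.5 in the authors' scaled intensity units. Of 692 probes with 1 gene, among 3439 probes in all, 63 reached that level, and 54 remained after 9 loci were left out by name. Those 9 were LHB1B2 (LHCB1.5), PSB27, PSBW, PSAN, CCL, AT4G35660, AT3G04210, AT4G39760 and AT1G44830. The lowest probes inside the limit were AT1G08845, AT1G35510 and AT3G19810, at means of 1.54 each, and the next below it were ATSPS4F, AT2G30320 and AT1G74070, at 1.498, 1.495 and 1.46. The level itself was therefore the selection and is given only as a description. A probe's brightness also depends on the probe, so a bright spot does not show that its transcript is more abundant than that of a dimmer spot, and no level is set against that of another gene.

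The samples were wild-type Arabidopsis thaliana of ecotype C24, compared in 2 groups of 6 arrays of total RNA. In the first group the growth light was one that mainly drives photosystem II, and DCMU was applied. In the second, called untreated, plants had the same light and no DCMU. The labels state neither plant age and organ nor the dose and duration of treatment. Of 15 green-leaf marker genes, 5 had a probe of their own name, with a summed intensity of 31.1 to 39.7 in DCMU-treated and 37.6 to 47.8 in untreated plants. The members of that sum went both ways: LHB1B2 averaged 10.03 with DCMU and 22.3 without (log2 change -1.15), while PSBW, PSAN, PRK and SBPASE had changes of 0.23, 0.10, 0.46 and 0.40, none of them past the test. Without LHB1B2 the sum was 21.9 to 28.7 in DCMU-treated and 18.8 to 22.4 in untreated plants. None of the root, seed or flower markers had a probe of its own name, so other organs could not be checked.

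DCMU (diuron) blocks electron transfer from photosystem II to the plastoquinone pool of the thylakoid membrane. Light that mainly excites photosystem II tends to keep that pool reduced, and the redox state of the pool is known to feed back on the transcription of photosynthesis genes in plastid and nucleus. The transcripts measured here include components of plastid electron flow and pigment synthesis, organellar RNA-processing factors, chaperones, enzymes of primary metabolism and signalling proteins. Roles below are general background knowledge of the loci and were not read from the files, and 19 of the 54 loci are given without a role.

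Numbers 1-2, 3-4 and 5-6 of a group deviated together and were each averaged on the log2 scale, which gave 3 replicates per group. Nothing in the labels shows that they were separate plants, so p-values reflect only the spread between these 3, possibly a technical one. Array totals lay between 3643 and 3768, and no member's value stood at the floor or at the ceiling. Array medians differed more by group in some number pairs. In numbers 1-2 they were 0.684 and 0.687 with DCMU and 0.645 and 0.645 without. Numbers 3-4 stood at 0.632 and 0.638 with DCMU and 0.630 and 0.640 without, and numbers 5-6 at 0.665 and 0.665 against 0.605 and 0.596. The part of these offsets in the changes below was not tested apart from the centred fits. The 54 intensities summed to 256.9 to 280.1 per array in DCMU-treated plants and 233.2 to 264.9 in untreated plants, so the groups overlapped. At every number the sum was higher with DCMU, such as 273.2 against 259.5 in number 3 and 277.7 against 237.0 in number 6. In RNA from many cells, fewer cells of a type and less RNA per cell cannot be told apart.

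Among these probes the changes with DCMU were small. Of the 54, 27 were level, meaning that the whole 95% interval of the log2 change lay within 0.5 either way; this held for 60.6% of all 3278 features tested. With the replicate block described next 32 were level, against 73.2% of all features. None of the 54 passed limma's moderated test at an adjusted p of 0.05 without a block, while 16 had an unadjusted p under 0.05, as 24.5% of all features did. The background rate of calls in that test was 5.09%, made up of 1.92% higher and 3.17% lower. This count of 0 was fixed by the rule, because all 7 of the 63 bright named probes that passed (11.1%) were among the 9 left out, with PSBW and PSAN as the other two. With the number pair as a replicate block, which compares treated and untreated arrays of the same numbers, 14 of the 54 passed, 13 of them higher and 1 lower with DCMU. In that fit 17.3% of all features passed, 10.7% higher and 6.56% lower. When each array was also centred on its median, 6 of the 14 still passed (5 higher, 1 lower), against 15.3% of all features.

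The change with DCMU ran from -0.49 to 0.75 on the log2 scale over the 54 probes, with a median of 0.11 against 0.10 over all features. A total of 37 changes were positive and 17 negative, against 2209 and 1069 of all 3278 features. The replicates of the groups did not overlap for 13 probes that were higher and 4 that were lower, against 30.6% of all features, 21.9% higher and 8.69% lower. All 3 number pairs were higher for 19 probes and lower for 6, against 40.1% and 16.5% of all features. Because the probes with the largest changes were among the loci left out, these counts describe the remaining probes and say nothing about bright probes in general. Of the 292 other features with a mean of at least 1.5, annotated to several genes or none, 20.2% passed without a block, 22 higher and 37 lower. With the block 33.6% of these 292 passed, 51 higher and 47 lower, against 25.9% of the 54. Without the block 40.8% of the 292 were level, against 50% of the 54, and with it 52.1% against 59.3%. All 63 bright named probes, with the 9 left-out loci included, gave 33.3% passed with the block and 44.4% level without it.

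**Figure D1:**
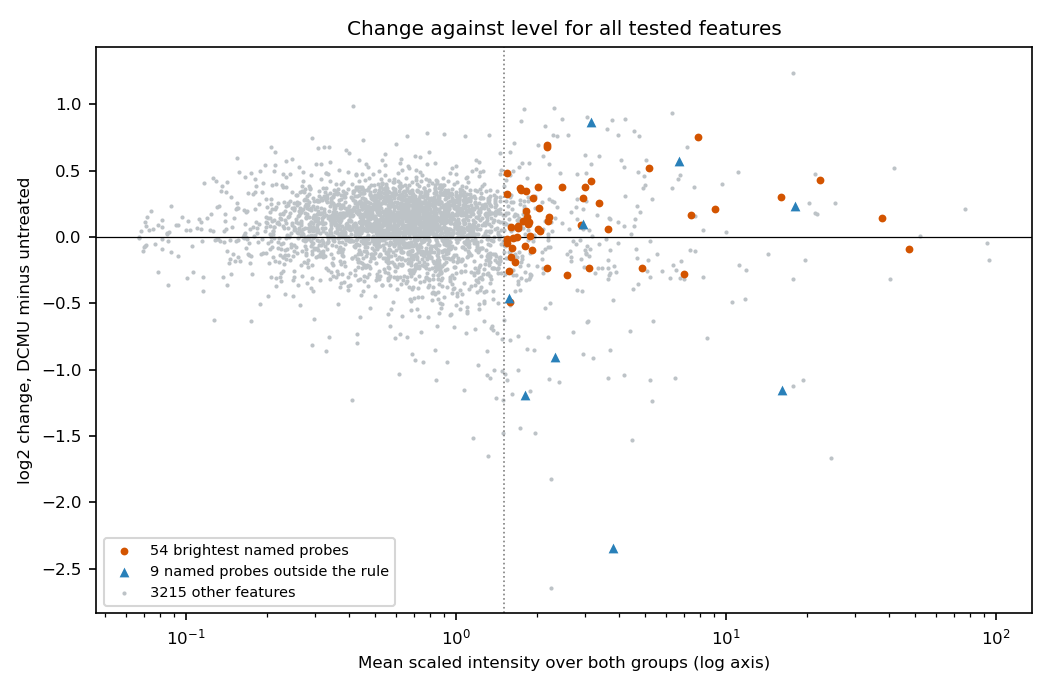
Log2 change (DCMU minus untreated, vertical axis) against mean scaled intensity over both groups (horizontal log axis) for 3278 features. Orange points are the 54 bright named probes described here, between -0.49 and 0.75, and blue triangles the 9 bright named loci left out of the set. Grey points are all other features, and the dotted line marks 1.5.

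**Figure D2:**
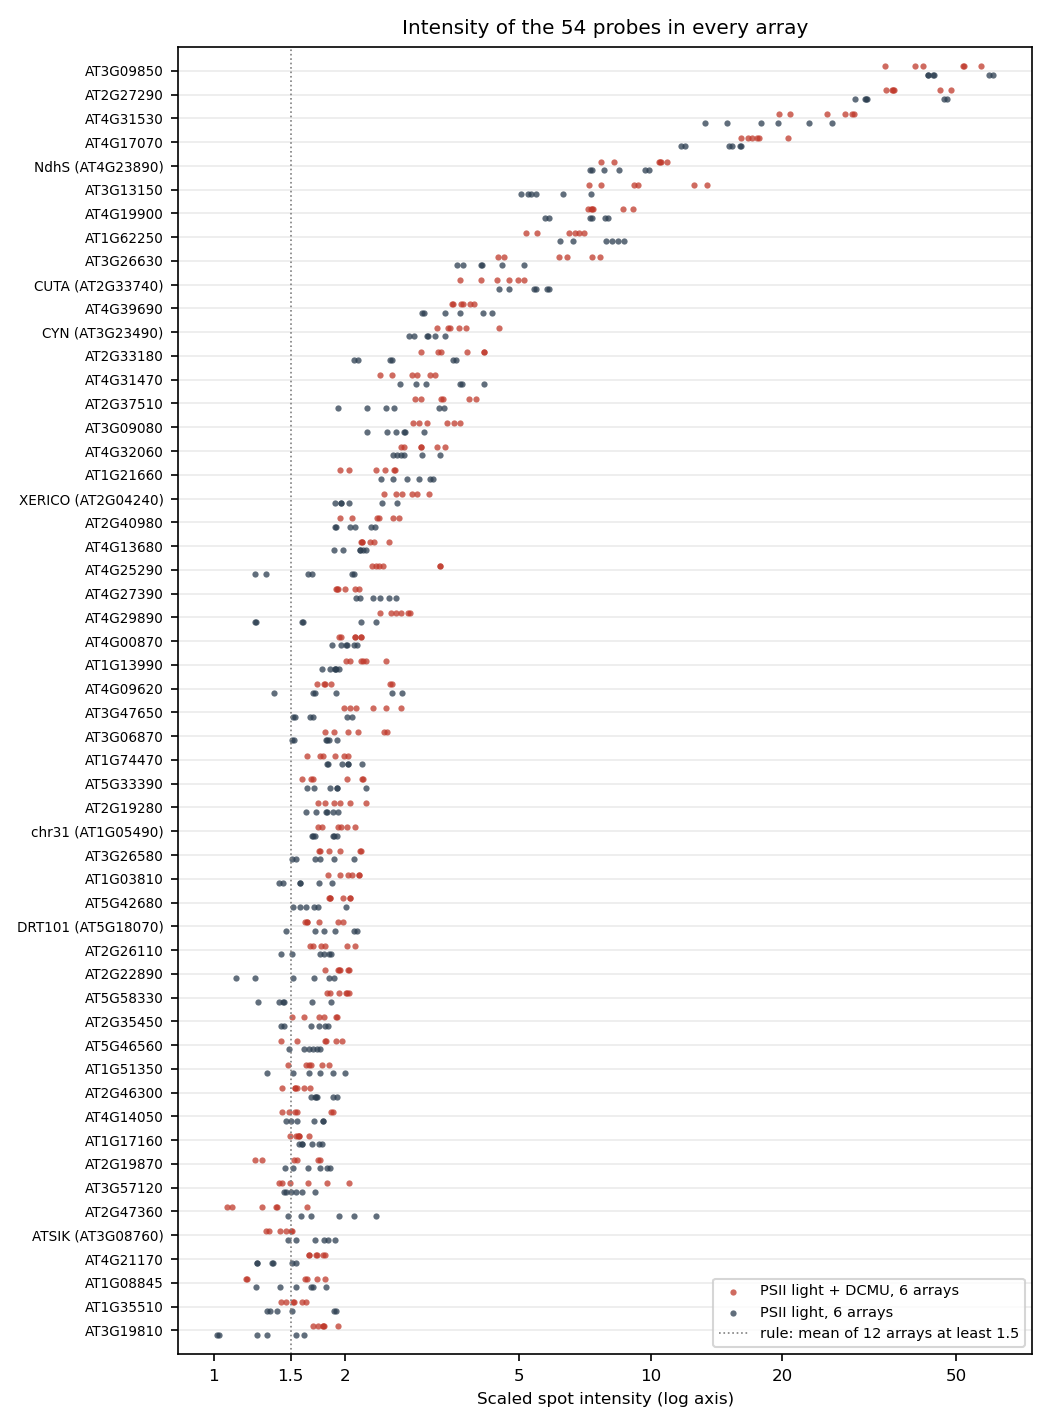
Scaled intensity (log axis) of the 54 probes in each of the 12 arrays, red for DCMU-treated and dark blue for untreated plants, ordered by mean. The averaged replicates of the groups overlap for 37 of the 54; AT4G25290 and AT4G29890 are among those whose DCMU arrays all lie above the untreated ones.

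The 3 probes for plastid electron flow and pigment synthesis had 2 positive changes and 1 negative, the last of a level probe. AT3G47650, described with them, belongs to the folding proteins. CUTA, a plastid protein outside this group, had a change of -0.23 and was not level without the block. NADP-malate dehydrogenase (AT5G58330), which exports reducing power from the chloroplast as malate and is itself switched on by thioredoxin, had intensities of 1.82, 1.97 and 2.03 (lowest, median and highest of 6 arrays) in DCMU-treated plants, against 1.26, 1.45 and 1.85 in untreated plants. The arrays of the groups overlapped only slightly, and the replicates did not overlap. Its log2 change was 0.37 (95% interval 0.09 to 0.64; limma, adjusted p = 0.115, and adjusted p = 0.0378 with the block).

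NdhS (AT4G23890), the subunit of the chloroplast NADH dehydrogenase-like complex that binds ferredoxin for cyclic electron flow, was at 7.71, 10.5 and 10.9 in DCMU-treated and 7.26, 8.14 and 9.93 in untreated plants. The groups overlapped widely: numbers 1-2 and 5-6 differed by 0.52 and 0.40, and numbers 3-4 by -0.30. Its log2 change of 0.21 (-0.13 to 0.54) passed neither test (limma, adjusted p = 0.397 and, with the block, 0.283). Geranylgeranyl reductase (AT1G74470), which makes the phytyl side chain of chlorophyll and tocopherol, was level, at 1.84 ± 0.159 in DCMU-treated and 1.97 ± 0.116 in untreated plants (SD, n = 3), a log2 change of -0.10 (-0.35 to 0.14). AT3G47650, a DnaJ-like zinc-finger protein whose maize counterpart BSD2 acts in Rubisco assembly, was at 1.98, 2.21 and 2.68 with DCMU and at 1.52, 1.67 and 2.07 without. Only the edges of those ranges overlapped, and the change of 0.38 (0.09 to 0.67) passed with the block (limma, adjusted p = 0.0255, against 0.124 without it).

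The set held 5 probes for pentatricopeptide repeat proteins, a large plant family that binds organellar RNA and acts in its editing, splicing and stability. With the block 3 of them passed, all higher with DCMU, where 10.7% of all features passed higher. The other 2 were level, as 60.6% of all features were. After median centring with the block AT3G13150 still passed. AT3G26630 and AT4G21170 then did not (limma, adjusted p = 0.0683 and 0.104). AT3G13150 had the largest change of the 54 probes. It was at 7.23, 9.26 and 13.5 in DCMU-treated plants, against 5.06, 5.40 and 7.31 in untreated plants, with 1 untreated array inside the treated range. Its log2 change was 0.75 (0.33 to 1.17), 1.68-fold, with limma's adjusted p = 0.0507 without and 0.00687 with the block.

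AT3G26630 was at 4.48, 6.31 and 7.66 with DCMU and 3.61, 4.10 and 5.12 without it, a change of 0.52 (0.12 to 0.92; limma, adjusted p = 0.121, and 0.0325 with the block). The replicates overlapped, since numbers 3-4 differed by -0.09 while 1-2 and 5-6 differed by 0.87 and 0.79. AT4G21170 changed less but evenly: its 6 DCMU arrays, at 1.65 to 1.80, all lay above the 6 untreated arrays, at 1.26 to 1.54, and the change was 0.32 (0.08 to 0.57; limma, adjusted p = 0.121, and 0.0397 with the block). AT2G19280 and AT4G14050 were level, at 0.11 (-0.14 to 0.36) and -0.01 (-0.29 to 0.27). Members of this family resemble each other in sequence, and no probe was checked for cross-hybridisation.

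The other probes tied to RNA, ribosomes or chromatin gave no call, and 4 of 6 were level, against 60.6% of all features. Of all features 5.09% passed without and 17.3% with the block. The level ones were AT3G09850 (G-patch family, found in RNA-processing proteins), chr31 (AT1G05490, a SNF2-type chromatin remodeler), AT2G19870 (SpoU family of RNA methyltransferases) and AT1G08845 (ribosomal L18p/L5e family). AT2G37510, with an RNA-recognition motif, had a change of 0.37 (-0.00 to 0.75; limma, adjusted p = 0.205, and 0.0628 with the block), and the mTERF-family gene AT4G09620 one of 0.06 (-0.39 to 0.51). The arrays of the mTERF probe differed by number: numbers 1-2 were at 2.54 with DCMU and 1.79 without, and numbers 3-4 at 1.82 with DCMU and 2.63 without.

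None of the 4 brightest probes passed in either fit, where 5.09% of all features passed without and 17.3% with the block. AT3G09850, the brightest, was at 34.4, 46.9 and 57.1 in DCMU-treated plants and 43.1, 44.4 and 60.9 in untreated plants, and was level at -0.09 (-0.42 to 0.24). Its lowest and highest DCMU arrays were numbers 5 and 6, which were averaged to 44.3, so their spread is not in the interval. The number pairs 1-2, 3-4 and 5-6 differed by -0.09, 0.25 and -0.44. AT2G27290, of a family with the DUF1279 domain, was at 34.6, 36.0 and 48.7 with DCMU and 29.4, 31.2 and 47.7 without. In both groups its high arrays were numbers 3-4, at 47.3 with DCMU and 47.4 without, while the other replicates lay between 30.2 and 36.0. Its change was 0.14 (-0.26 to 0.55), too wide to be called level without the block.

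AT4G31530, a Rossmann-fold protein of the NAD(P)-binding type, was at 19.7, 26.6 and 29.2 with DCMU and 13.3, 18.7 and 26.0 without, a change of 0.43 (-0.01 to 0.86; limma, adjusted p = 0.213, and 0.0640 with the block). Almost all of that lay in numbers 5-6, which differed by 1.04, against 0.11 and 0.12 in the other pairs. AT4G17070, of the peptidyl-prolyl isomerase family of folding catalysts, was at 16.1, 17.3 and 20.6 with DCMU and 11.7, 15.2 and 16.1 without. Its replicates did not overlap, numbers 5-6 again differed most (0.66, against 0.17 and 0.07), and the change of 0.30 (0.01 to 0.59) did not pass (limma, adjusted p = 0.192, and 0.0894 with the block). The third folding protein, the DnaJ-domain protein AT1G21660, had a change of -0.29 (-0.58 to 0.01). Also among the 8 brightest, AT1G62250 was at 5.19, 6.61 and 7.02 with DCMU and 6.20, 8.03 and 8.69 without, a change of -0.28 (-0.60 to 0.04). AT4G19900, of a glycosyltransferase family, was at 7.20, 7.35 and 9.13 with DCMU and 5.73, 7.30 and 7.99 without, and was level at 0.17 (-0.15 to 0.48). For both the arrays of the groups overlapped.

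Of 5 probes for metabolic enzymes outside photosynthesis, 2 passed with the block, both higher with DCMU, where 10.7% of all features passed higher. AT4G29890 is like choline monooxygenase, which in spinach oxidises choline on the way to glycine betaine. Its 6 DCMU arrays, at 2.40, 2.65 and 2.82, all lay above the 6 untreated arrays, at 1.24, 1.60 and 2.36. The DCMU replicates were close together (2.64 ± 0.168, SD, n = 3) and the untreated ones spread (1.70 ± 0.516, SD, n = 3). The change was 0.67, or 1.60-fold (0.26 to 1.09; limma, adjusted p = 0.0680, and 0.00686 with the block).

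AT2G22890, related to the plastid fatty acid desaturase FAD4, showed the same kind of spread, 1.94 ± 0.0670 with DCMU and 1.55 ± 0.342 without (SD, n = 3), with a change of 0.35 (0.01 to 0.70; limma, adjusted p = 0.194, and 0.0492 with the block). The other enzymes did not pass. Cyanase (CYN, AT3G23490), which breaks down cyanate with bicarbonate, was at 3.67 ± 0.401 with DCMU and 3.07 ± 0.210 without (SD, n = 3), a change of 0.25 (-0.00 to 0.51; limma, adjusted p = 0.208, and 0.0924 with the block). DRT101 (AT5G18070), of the phosphoacetylglucosamine mutase type, was level at -0.07 (-0.36 to 0.23), as was the pfkB-type sugar kinase AT1G17160 at -0.09 (-0.31 to 0.14).

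Among 4 signalling genes 1 passed with the block, against 17.3% of all features. XERICO (AT2G04240) encodes a small RING-H2 protein that raises abscisic acid levels when overproduced. It was at 2.45, 2.77 and 3.11 in DCMU-treated plants, against 1.89, 2.001 and 2.63 in untreated plants, and its replicates did not overlap. The change was 0.37 (0.08 to 0.66; limma, adjusted p = 0.125, and 0.0366 with the block). The protein kinase ATSIK (AT3G08760) had a change of -0.26 (-0.51 to -0.00; limma, adjusted p = 0.195, and 0.103 with the block), with all 3 DCMU replicates below the untreated ones. The bHLH transcription factor gene AT4G00870 and the kinase-family gene AT3G57120 were level, at 0.04 (-0.18 to 0.27) and 0.08 (-0.21 to 0.36).

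Mitochondrial and cell-surface proteins gave no call, where 5.09% of all features passed without and 17.3% with the block. Of all features, 60.6% were level. Both mitochondrial probes were level: AT4G32060, an EF-hand regulator of calcium uptake into mitochondria, at 0.09 (-0.18 to 0.36), and AT4G39690, of the complex that shapes the inner membrane, at 0.06 (-0.23 to 0.35). Of 4 cell-surface and cell-wall probes 3 were level, namely AT4G19900, AT1G35510 (O-fucosyltransferase family, -0.02, -0.32 to 0.29) and AT2G46300 (LEA hydroxyproline-rich glycoprotein family). AT2G46300 lay lower in all 6 DCMU arrays, at 1.43, 1.54 and 1.66, than in the untreated arrays, at 1.67, 1.72 and 1.92; its interval of -0.42 to 0.04 still fell within the level limits. AT4G31470, of the CAP family of secreted proteins, had a change of -0.23 (-0.56 to 0.09), and CUTA (AT2G33740), a plastid protein related to bacterial CutA, one of -0.23 (-0.53 to 0.06).

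Among the 19 loci given without a role, 6 passed with the block and 11 were level, against 17.3% and 60.6% of all features. AT4G25290 had the second-largest change: it was at 2.30, 2.42 and 3.30 in DCMU-treated plants, all above the 1.24, 1.66 and 2.09 of untreated plants. Its change was 0.69, or 1.61-fold (0.27 to 1.11; limma, adjusted p = 0.0632, and 0.00384 with the block, the smallest of the 54).

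AT2G47360 was the only probe of the 54 that passed lower with DCMU. It was at 1.07, 1.34 and 1.63 with DCMU and 1.48, 1.80 and 2.35 without, a change of -0.49, 1.41-fold lower (-0.84 to -0.14; limma, adjusted p = 0.107, and 0.00442 with the block). The arrays overlapped between groups, but within each number pair the DCMU value was lower by a similar amount, with differences of -0.56, -0.53 and -0.39. Both groups were highest in numbers 1-2 and lowest in numbers 3-4, a spread that the block removes.

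The other 4 were higher with DCMU. AT3G19810 was at 1.69, 1.78 and 1.92 with DCMU, above all untreated arrays at 1.02, 1.29 and 1.61, a change of 0.48 (0.15 to 0.81; limma, adjusted p = 0.0194 with the block). AT2G33180 was at 2.98, 3.55 and 4.15 with DCMU and 2.10, 2.54 and 3.58 without, a change of 0.42 (0.02 to 0.82; limma, adjusted p = 0.0175 with the block). All 6 DCMU arrays of AT3G19810 thus stood apart, while those of AT2G33180 overlapped with untreated ones. AT1G03810 was at 1.83, 2.05 and 2.15 with DCMU and 1.41, 1.57 and 1.87 without, a change of 0.35 (0.08 to 0.61; limma, adjusted p = 0.0321 with the block). AT3G09080 had a change of 0.30 (0.03 to 0.57; limma, adjusted p = 0.0493 with the block). Without the block none of these passed (limma, adjusted p = 0.0976, 0.186, 0.121 and 0.173).

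**Figure D3:**
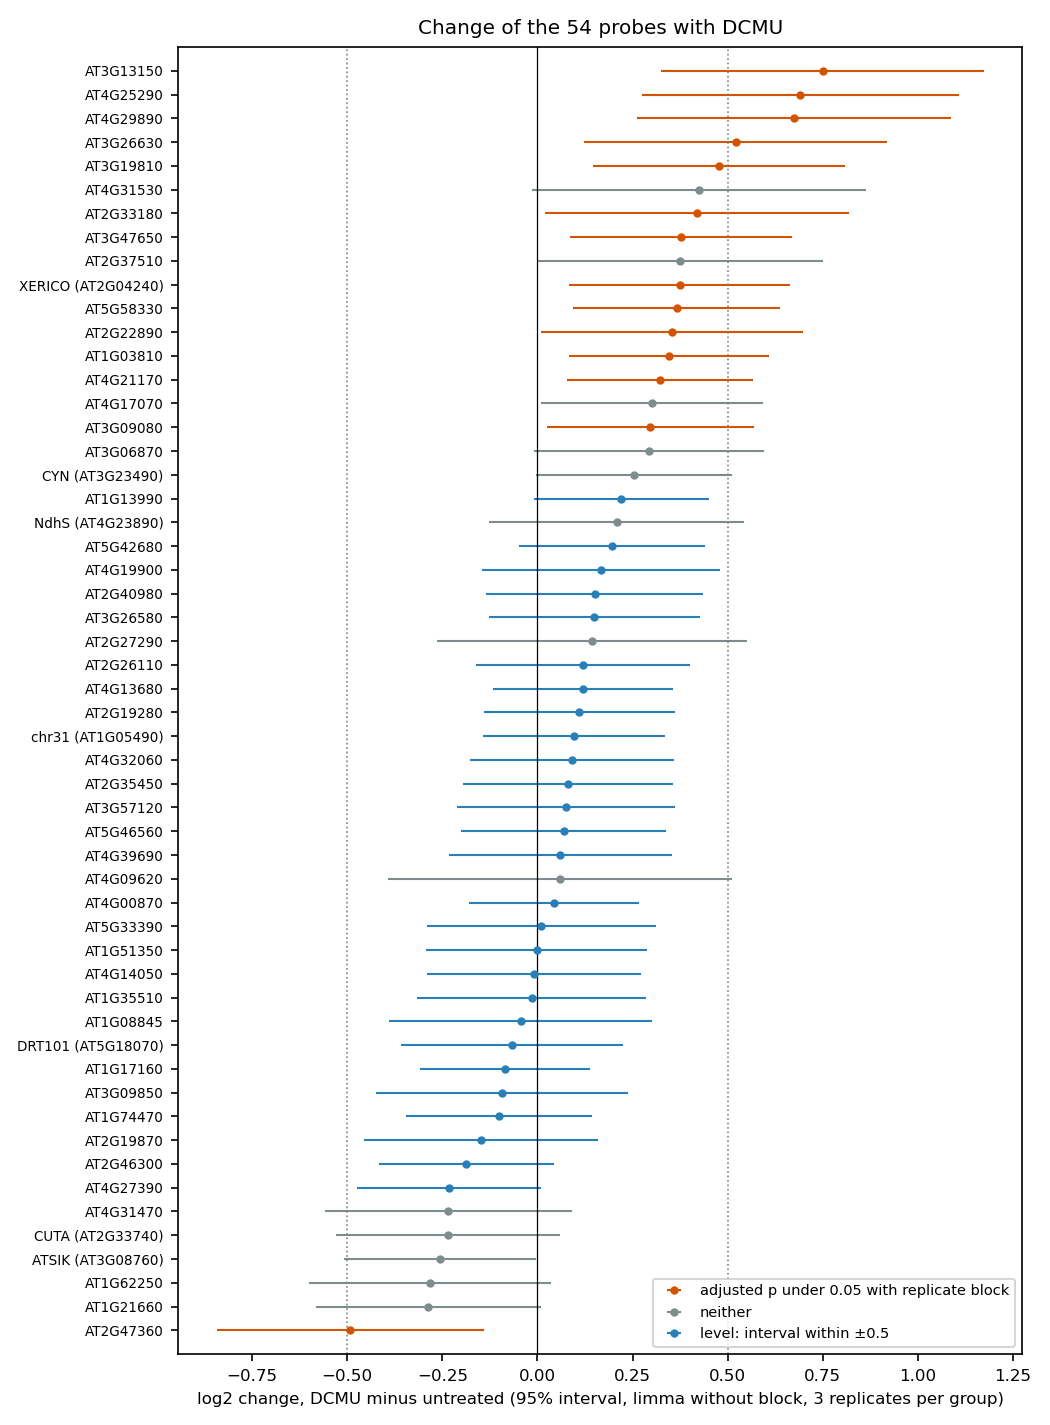
Log2 change with DCMU (DCMU minus untreated, horizontal axis) and its 95% interval from limma without a block, for the 54 probes (3 replicates per group). Orange marks the 14 probes past an adjusted p of 0.05 with the replicate block, blue the 27 level ones and grey the rest; dotted lines stand at 0.5 either way.

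The level probes spanned most of the roles above, and 17 of the 27 stayed level under the 14 other planned settings of the fit. AT4G19900, AT2G19870, AT3G09850, AT4G27390 and AT3G26580 lost the level call in 7, 6, 6, 5 and 4 of these 14. The block fits without 1 number pair, chosen after seeing the data, are not among them. Without numbers 1-2, 7 of the 27 lost the call, including AT2G19280 and AT2G46300, which kept it in the planned settings. The narrowest interval belonged to the sugar kinase gene AT1G17160, at 1.49, 1.56 and 1.65 in DCMU-treated and 1.57, 1.64 and 1.77 in untreated plants. The next was AT4G00870, at 1.94, 2.11 and 2.17 with DCMU and 1.87, 2.01 and 2.13 without. For both, the arrays of the groups overlapped. Level by this limit does not mean identical: AT1G13990 lay higher in all 6 DCMU arrays (2.01, 2.18 and 2.48) than in the untreated arrays (1.77, 1.90 and 1.94), with an interval of -0.01 to 0.45. AT4G27390 lay lower, at 1.90, 1.96 and 2.15 with DCMU and 2.11, 2.36 and 2.61 without, with little overlap (interval -0.48 to 0.01). AT2G46300, given above, also had a narrow interval, and its arrays did not overlap between the groups. The remaining level probes with narrow intervals overlapped more. AT4G13680 was at 2.18, 2.23 and 2.51 with DCMU and 1.89, 2.16 and 2.23 without (interval -0.12 to 0.36). The remodeler gene chr31 was at 1.73, 1.94 and 2.10 with DCMU and 1.68, 1.79 and 1.91 without (-0.14 to 0.34). AT5G42680 was at 1.83, 1.91 and 2.05 with DCMU and 1.52, 1.66 and 2.01 without (-0.05 to 0.44). For these 3 the DCMU medians were higher and the groups overlapped. Of the probes nearest the intensity limit, AT1G08845 was at 1.19, 1.63 and 1.80 with DCMU and 1.25, 1.60 and 1.81 without, and AT1G35510 at 1.43, 1.52 and 1.62 with DCMU and 1.33, 1.45 and 1.90 without; both were level. The remaining level probes without a role were AT2G40980, AT5G33390, AT3G26580, AT2G26110, AT2G35450, AT5G46560 and AT1G51350, with changes between -0.00 and 0.15. AT3G06870 was neither level nor past a test, at 0.29 (-0.01 to 0.60; limma, adjusted p = 0.213, and 0.0565 with the block).

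Changes of the 14 probes that passed with the block were uneven across the number pairs. The 13 higher ones had a median difference of 0.49 in numbers 1-2, 0.15 in numbers 3-4 and 0.65 in numbers 5-6, and for 11 of them numbers 3-4 gave the smallest difference. In 12 of the 13 the highest untreated replicate was numbers 3-4, as it was in 27 of the 54 probes and in 42.5% of all features. The matched share, among all 351 features that passed higher with the block, was 59.5%. All features showed a smaller median in numbers 3-4 as well, at 0.03, against 0.10 in numbers 1-2 and 0.13 in numbers 5-6. The part of the untreated arrays 3-4 in these results was not tested. Without the number pair 3-4 in both groups the block fit passed 23 of the 54 probes (25.9% of all features), without 5-6 it passed 7 (10.2%), and without 1-2 it passed 0 (1.53%). These fits rest on 2 pairs each and were chosen after seeing the data. Median centring of each array together with the block left 6: AT3G13150, AT2G33180, AT4G25290, AT4G29890 and AT3G19810 higher, and AT2G47360 lower.

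**Figure D4:**
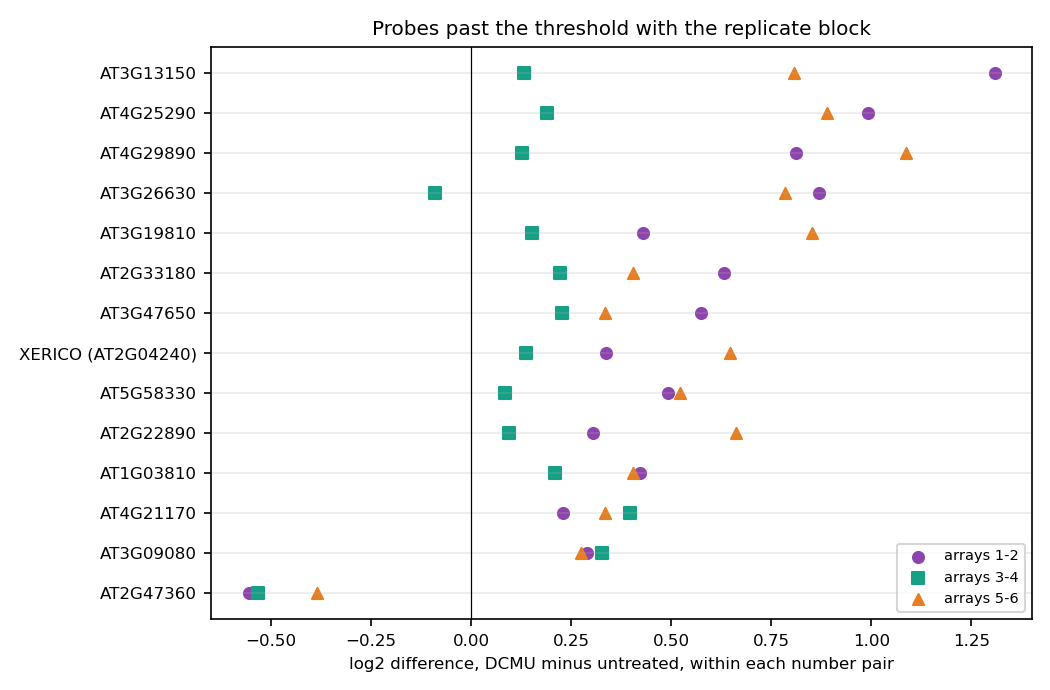
Log2 difference (DCMU minus untreated, horizontal axis) within numbers 1-2 (purple circles), 3-4 (green squares) and 5-6 (orange triangles) for the 14 probes past the threshold with the replicate block. The squares lie closest to 0 for 11 of the 13 higher probes, and AT2G47360 is lower by 0.39 to 0.56 in every pair.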

How the data were processed

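The authors deposited linear spot intensities, 1 for each probe on each array and already scaled; how they labelled, scanned, background-corrected and scaled the arrays is not given in the sources used here. All 12 columns were used. Probes were named from the platform annotation where it gave 1 gene, updated through the RefSeq TAIR10.1 table (690 of 692 found, all 54 described here among them). A floor of 0.0669 (1st percentile of the values above 0) was applied, 160 probes at it on every array were dropped, log2 was taken and probes of 1 gene were averaged (3278 features).

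Across features, deviations from a group's mean had correlations of 0.36 to 0.67 within numbers 1-2, 3-4 and 5-6, and at -0.58 to -0.11 between other numbers, so each pair was averaged. Across groups the same pairs correlated at 0.38 to 0.45 and different pairs at -0.38 to 0.01, which was taken as pairing. These correlations are over all features and were not computed for the 54 probes alone. Both groups were highest in the same number pair for 20 of the 54 (37%), against 45.6% of all features. Pairing was thus less plain in these probes. A fit with the number pair as a block was run beside the one without. The comparison used limma's lmFit and eBayes (version 3.58.1, R 4.3.3; two-sided, Benjamini-Hochberg over all features). The fit was tested on simulated data.

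The members, the roles and the tests were chosen with earlier results of these data known. Values per array are given for probes called only with the block (10 with the smallest p), the 8 brightest, the 8 level probes with the narrowest interval and the 3 nearest the intensity limit, and for some others; the rest are given by role. Roles were assigned by hand, because the tables hold no gene descriptions to match. Alternatives were median centring, quantile normalization, another floor, no filter, an intensity trend, 12 separate samples and leaving out replicates. No sequences were used. The number of arrays limits the precision.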

Additional observations from a re-analysis of the deposited data

Results flagged for a closer look

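In 108 groups of 6 arrays (54 probes, each in DCMU-treated and untreated plants), 1 held an array far from the others by Dixon's test. AT4G17070, of the peptidyl-prolyl isomerase family, stood at 20.6 in number 5 of the DCMU-treated plants, with the next array at 17.7. Chance flags about 1 in 20 such groups, and the averaged replicates of numbers 5-6 include this array.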

How the results depend on the processing

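Without a block, 0 of the 54 probes passed as analysed, with the floor at the 10th percentile, without the filter on low values and with the intensity trend. Of all features 5.09%, 4.83%, 2.97% and 5.64% passed there. The rule had left out every bright named probe that passed as analysed. With the replicate block 14 passed (13 higher, 1 lower), after median centring 2 (1 higher, 1 lower), after quantile normalization 1 (higher), after median centring with the block 6 (5 higher, 1 lower), and with 12 samples as separate replicates 26 (20 higher, 6 lower). Over all features these settings passed 17.3%, 6.28%, 6.1%, 15.3% and 33.2%. The last treats paired numbers as independent and also passed 4 of the 27 level probes. Chosen after seeing the data, the block without numbers 3-4 passed 23 (16 higher, 7 lower), without 5-6 7 (6 higher, 1 lower) and without 1-2 0. Leaving out 1 replicate of 1 group gave 0 to 10 probes, 0 to 9 higher and 0 to 1 lower; the 10 came without untreated numbers 3-4, where calls over all features also numbered more, 282 (159 higher) against 167 (63 higher) with all replicates. The cause was not tested. All 14 probes passed by the block kept their sign in every setting run. The number of level probes was 24 to 39 in the settings with all replicates and 22 to 26 without 1 replicate. Under the 14 other planned settings of the fit 17 of the 27 level probes kept that call throughout. AT4G19900 lost it in 7, AT2G19870 and AT3G09850 in 6, AT4G27390 in 5 and AT3G26580 in 4. AT1G08845 and AT1G13990 lost it in 3, and AT2G26110, AT2G40980 and AT5G42680 in 2. Beyond those 14, the block without numbers 1-2 lost 7 of the 27, AT2G19280 and AT2G46300 among them. Without 3-4 it lost 3 and passed 1 level probe, AT4G27390, and without 5-6 it lost 0.

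Signs turned only in probes near 0 that passed in no fit without a block. Median centring, without and with the block, gave -0.015 for AT4G39690, -0.0316 for AT4G00870, -0.0161 for AT4G09620, -0.0652 for AT5G33390 and -0.00619 for AT5G46560. Quantile normalization gave 0.0301 for AT1G51350, 0.0125 for AT4G14050 and 0.0144 for AT1G35510. Without 1 replicate the change was -0.157 to 0.126 for AT1G08845, -0.12 to 0.132 for AT1G35510, -0.121 to 0.104 for AT1G51350, -0.0156 to 0.159 for AT2G35450, -0.189 to 0.0596 for AT3G09850, -0.0468 to 0.173 for AT3G57120, -0.11 to 0.281 for AT4G09620, -0.115 to 0.0637 for AT4G14050, -0.058 to 0.186 for AT4G39690, -0.172 to 0.0362 for AT5G18070, -0.102 to 0.112 for AT5G33390 and -0.0109 to 0.178 for AT5G46560. Other log2 changes kept their sign in every planned setting. Without background values, the share of nonspecific signal in a probe's intensity cannot be measured here.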
